A study of Mus musculus with 6 samples.

Results

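The 10 genes of dendritic cells followed here in RNA of splenic CD8+ T cell isolates are Flt3, Zbtb46, Itgax, Xcr1, Clec9a, Batf3, Cd209a, Siglech, Tcf4 and Bst2. They were chosen by name as genes of conventional and plasmacytoid dendritic cells, with earlier results of these data known, and were 10 of 28773 genes listed for each sample. Mice of both groups carried tumors treated by microwave ablation (MWA), and CD8+ T cells were isolated from their spleens on day 35. MWA+PBS mice (replicates 1 to 3) received PBS after the ablation, and MWA+2DG mice (replicates 4 to 6) received 2-deoxy-D-glucose (2DG), a glucose analogue that blocks glycolysis. The strain, age and tumor line of these mice are not in the sample labels, and the labels do not say that each sample came from a separate animal, so p-values measure the spread between these samples. No sequencing batch is labelled, and a batch that followed the treatment cannot be told apart from it.

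Dendritic cells take up antigen and present it to T cells. Conventional dendritic cells grow under the cytokine FLT3 ligand and fall into type 1 cells (cDC1), which cross-present antigen to CD8+ T cells, and type 2 cells (cDC2), which mainly prime CD4+ T cells. Plasmacytoid dendritic cells (pDC) are the main source of type I interferon during viral infection. None of these cells should pass a CD8+ T cell isolation in number, and several of the genes are also used elsewhere: Itgax by macrophages, NK cells and activated CD8+ T cells, Bst2 by most cells exposed to interferon, and Flt3 by early progenitors. In RNA of a whole isolate, fewer cells of a type and less RNA per cell cannot be told apart.

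Levels are given as FPKM, fragments scaled by transcript length and library total, and changes as differences of log2(FPKM + 1), MWA+2DG minus MWA+PBS. A gene was called when its adjusted p in the limma fit of the 12444 genes with a mean of at least 1 FPKM was under 0.05. Of all tested genes 39.4% were called, 22.3% higher and 17.1% lower in MWA+2DG, with a median change of 0.05. Only 3 of the 10 dendritic cell genes, Flt3, Itgax and Bst2, reached the fit. The other 7 members had means under 1 FPKM and were compared by an exact permutation test, which cannot go below p = 0.1 with 3 samples against 3. Where a direction is said to turn with scaling to CD8+ T cell genes, values were shifted within each library. The mean log2 level of 16 T cell identity genes was subtracted, which lowers each change by 0.53. This brings the median change of all genes to -0.48, with 318 of the 12444 genes called higher and 9686 lower.

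Flt3 and Itgax fell in MWA+2DG, and Bst2 was higher in every MWA+2DG sample without passing the threshold. Of the 7 genes under the filter, Tcf4, Siglech, Xcr1 and Batf3 had every MWA+2DG sample below every MWA+PBS sample, while Clec9a, Cd209a and Zbtb46 overlapped. Lower groups that did not overlap were found in 16% of all 28458 genes above 0 and in 11.5% of the 16015 such genes with a mean under 1 FPKM, where 6.89% had higher groups apart. Higher groups that did not overlap were found in 17.1% of all genes above 0. The level of the set as a whole rested on Bst2, which held most of its summed FPKM, and the sum was 32.1 ± 3.29 (SD, n = 3) under MWA+PBS and 29.8 ± 2.34 under MWA+2DG.

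**Figure D1:**
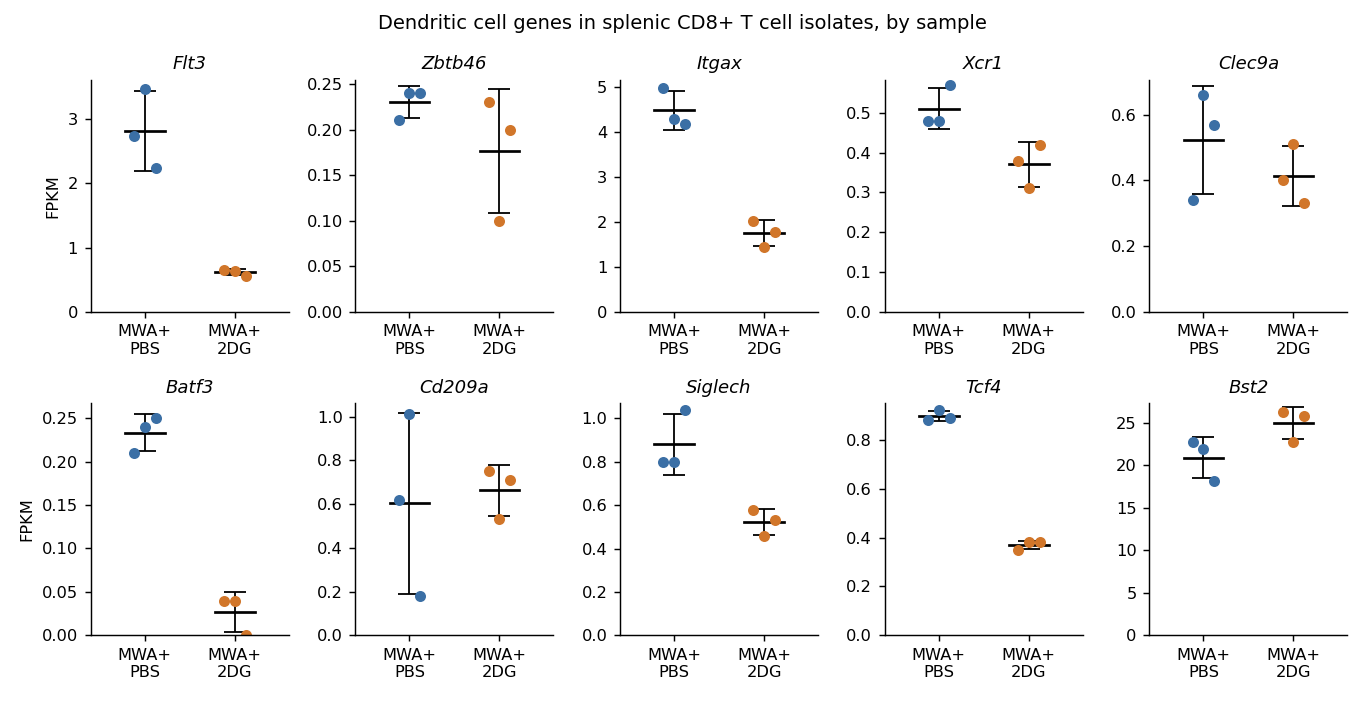
FPKM of the 10 genes in each sample (vertical axes from 0, a scale for each gene). Points are samples, horizontal bars the group means and whiskers the SD of 3 samples; Flt3, Itgax, Tcf4, Siglech, Xcr1 and Batf3 have all MWA+2DG points below the MWA+PBS points, and Bst2 has them above.

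The sequences upstream of the 3 genes in the fit are shown because these are the genes whose change could be tested across all genes. Each is the 250 bases before the RefSeq start in GRCm38.p6, on the strand of the gene, 5′ to 3′ (the notes on the deposited values name mm9, and no position was taken from them): Flt3 at chr5:147400490-147400739 (minus strand), Itgax at chr7:128129300-128129549 (plus strand) and Bst2 at chr8:71537473-71537722 (minus strand). Capitals mark matches to an AP-1 site (TGANTCA) in Itgax and to an interferon-stimulated response element (GAAA, 2 bases of any kind, GAAA) in Bst2, both strands searched.
Flt3: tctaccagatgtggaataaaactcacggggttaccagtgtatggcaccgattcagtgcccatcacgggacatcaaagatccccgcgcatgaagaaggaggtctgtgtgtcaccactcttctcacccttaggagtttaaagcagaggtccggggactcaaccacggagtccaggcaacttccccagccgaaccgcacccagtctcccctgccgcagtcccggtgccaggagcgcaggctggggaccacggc
Itgax: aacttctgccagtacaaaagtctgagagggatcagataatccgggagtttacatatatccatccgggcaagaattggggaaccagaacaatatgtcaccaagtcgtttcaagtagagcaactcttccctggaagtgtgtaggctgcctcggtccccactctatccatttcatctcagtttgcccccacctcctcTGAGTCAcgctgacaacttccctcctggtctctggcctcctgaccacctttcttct
Bst2: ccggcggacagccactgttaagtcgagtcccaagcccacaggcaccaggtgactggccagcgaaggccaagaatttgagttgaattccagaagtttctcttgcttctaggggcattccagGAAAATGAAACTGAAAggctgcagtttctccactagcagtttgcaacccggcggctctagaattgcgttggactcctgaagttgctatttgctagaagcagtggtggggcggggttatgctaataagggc
The 2 matches in Bst2 overlap, at 130 to 121 and at 124 to 115 bases before the start. A match to this response element pattern, on either strand, stood in 2.98% of 32851 RefSeq promoters of this length. The AP-1 match of Itgax lay 56 to 50 bases before the start, and Zbtb46 had one 61 to 55 bases before its own, against 6.75% of all promoters. A PU.1 site (GAGGAAGT) was in none of the 9 member promoters with an entry and in 2.44% of all promoters. A match is a description of these letters and not a measured site.

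Flt3 (ENSMUSG00000042817) encodes the receptor tyrosine kinase for FLT3 ligand, on which dendritic cell development depends. Its FPKM was 2.74, 3.47 and 2.24 in the MWA+PBS samples and 0.65, 0.64 and 0.56 in the MWA+2DG samples. The groups were far apart, and every MWA+2DG sample lay under 1 FPKM, so the gene passed the filter only through MWA+PBS. The mean fell 4.57-fold, from 2.82 ± 0.619 to 0.617 ± 0.0493 (SD, n = 3 each), with a log2 change of -1.23 ± 0.13 (SE; limma adjusted p = 0.000304). The tested gene whose profile over the 6 samples was most like it was Napsa, which encodes an aspartic protease, with a root mean square difference of 0.0561 on the log2 scale once the mean of each gene over the samples was taken away. Napsa had 10.34, 11.57 and 9.05 FPKM under MWA+PBS and 3.97, 3.90 and 3.36 FPKM under MWA+2DG.

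The receptors closest to FLT3 in family were lower as well, while the ligand was higher. Csf1r, the receptor that sustains monocytes and macrophages, had 67.9 ± 5.85 FPKM under MWA+PBS and 10.6 ± 0.0945 FPKM under MWA+2DG (SD, n = 3; log2 change -2.57, limma adjusted p = 4.79e-07). Kit, the stem cell factor receptor, had 5.15 ± 0.666 and 1.64 ± 0.0961 FPKM (log2 change -1.21, limma adjusted p = 8.26e-05). Flt3l, which T cells themselves make, had 16.86, 17.41 and 15.74 FPKM under MWA+PBS and 26.48, 23.50 and 24.46 FPKM under MWA+2DG. Its log2 change was 0.55 ± 0.07 (SE; limma adjusted p = 0.000566), beside a median of 0.56 over the CD8+ T cell genes, and 0.02 (limma adjusted p = 0.755) when scaled to those genes.

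Zbtb46 (ENSMUSG00000027583) encodes a zinc finger factor that marks conventional dendritic cells among myeloid cells. It was among the lowest members, at 0.21, 0.24 and 0.24 FPKM under MWA+PBS and 0.23, 0.10 and 0.20 FPKM under MWA+2DG. The groups overlapped, with replicate 5 low (difference -0.07, exact permutation p = 0.2). Its 95% interval without a filter was -0.19 to 0.06.

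Itgax (ENSMUSG00000030789) encodes the integrin chain CD11c, a surface marker of dendritic cells. It had 4.99, 4.29 and 4.19 FPKM under MWA+PBS and 2.03, 1.45 and 1.77 FPKM under MWA+2DG. No MWA+2DG sample came near the lowest MWA+PBS sample. The mean fell 2.57-fold, from 4.49 ± 0.436 to 1.75 ± 0.291 (SD, n = 3 each), with a log2 change of -1.0 ± 0.10 (SE; limma adjusted p = 0.000294). The profile most like it was that of Siah2, a ubiquitin ligase gene, with a root mean square difference of 0.0472 after the same centring.

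The other integrin chains of this family moved both ways. Itgad, the CD11d chain found on red pulp macrophages, went from 55.9 ± 3.44 to 7.03 ± 0.28 FPKM (SD, n = 3; log2 change -2.82, limma adjusted p = 2.08e-07). Itgam, the CD11b chain of neutrophils, macrophages and cDC2, went from 4.81 ± 0.694 to 12.6 ± 0.33 FPKM (log2 change 1.23, limma adjusted p = 5.22e-05). The lymphocyte chain Itgal and the shared beta chain Itgb2 were higher by 0.42 and 0.27 on the log2 scale (limma adjusted p = 0.00106 and 0.00969). Scaled to CD8+ T cell genes, Itgal stood at -0.11 and was not called (limma adjusted p = 0.169). Itgb2 was called lower there, at -0.25 (limma adjusted p = 0.003).

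**Figure D2:**
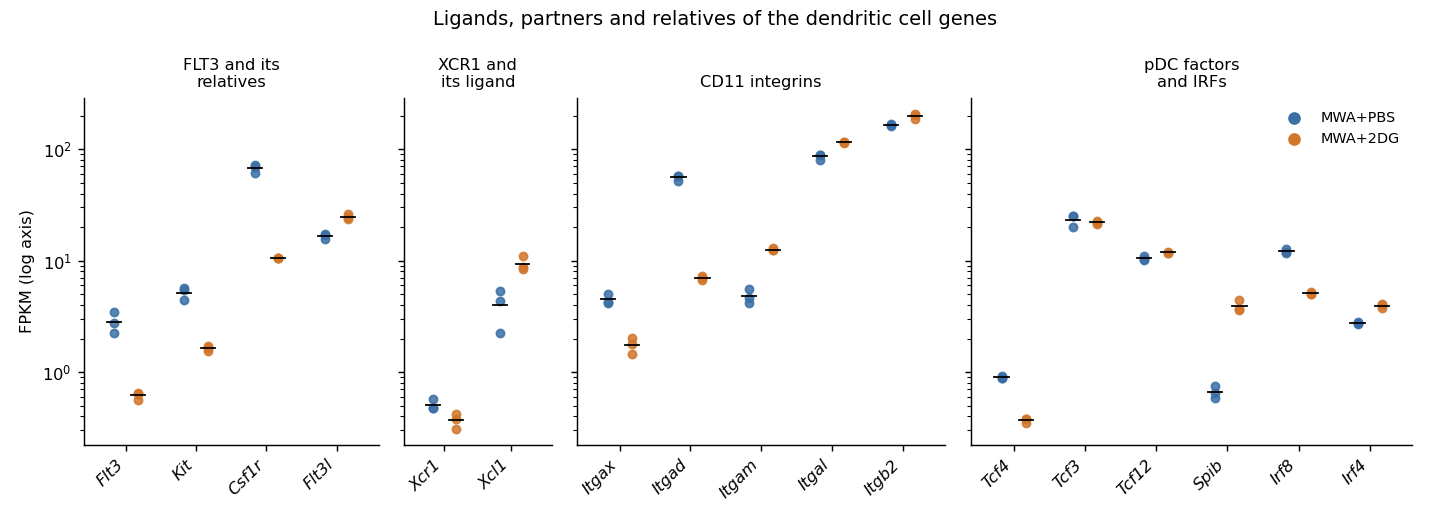
FPKM by sample (log axis) of ligands, partners and relatives of the dendritic cell genes, with group means as bars. Flt3 lies with the lower Kit and Csf1r and opposite its ligand gene Flt3l, and Itgax with the lower Itgad and opposite Itgam.

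Xcr1, Clec9a and Batf3 mark cDC1, and Batf3 and Xcr1 had groups that did not overlap. Batf3 (ENSMUSG00000026630), the factor that cDC1 need to develop, had 0.21, 0.24 and 0.25 FPKM under MWA+PBS and 0.04, 0.04 and 0.00 FPKM under MWA+2DG. The MWA+PBS samples were close to each other, with a coefficient of variation of 8.92%, against 86.6% among the MWA+2DG samples, which lay at or just above 0. Against values so near 0, listed to 2 decimals, no fold is given (difference -0.26, exact permutation p = 0.1). Without a filter, where 9.27% of 28458 genes were called lower, limma gave it an adjusted p of 0.00302. Xcr1 (ENSMUSG00000060509), the chemokine receptor by which cDC1 meet CD8+ T cells, had 0.48, 0.48 and 0.57 FPKM under MWA+PBS and 0.38, 0.31 and 0.42 FPKM under MWA+2DG. The groups did not overlap but lay close (difference -0.14, exact permutation p = 0.1, limma adjusted p = 0.209 without a filter). With quantile normalization the difference of Xcr1 was -0.08 (exact permutation p = 0.3), and scaled to CD8+ T cell genes it was -0.67 (exact permutation p = 0.1).

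Clec9a (ENSMUSG00000046080), a lectin that binds actin of dead cells, had 0.34, 0.66 and 0.57 FPKM under MWA+PBS and 0.40, 0.51 and 0.33 FPKM under MWA+2DG. The groups overlapped (difference -0.10, exact permutation p = 0.4), and the limma 95% interval with a minimum mean of 0.25 FPKM was -0.36 to 0.16. The values of Xcr1 and Clec9a are uncertain. The longest transcript of Xcr1 matched 23 other genes over at least 100 bases at 95% identity or more. Exons of Clec9a and Clec1b overlap on the same strand. Clec1b, named after its values were seen, had 0.27, 0.24 and 0.39 FPKM under MWA+PBS and 0.10, 0.11 and 0.20 FPKM under MWA+2DG. Of other C-type lectin genes, Clec7a stood at -0.47, Clec12a at -0.65 and Clec4n at -2.26 on the log2 scale (limma adjusted p = 0.00206, 0.00177 and 9.47e-06), all genes of macrophages and other myeloid cells.

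The ligand gene of XCR1 was higher. Xcl1, a chemokine of activated CD8+ T cells and NK cells, had 4.37, 5.37 and 2.23 FPKM under MWA+PBS and 10.96, 8.75 and 8.49 FPKM under MWA+2DG (log2 change 1.11 ± 0.24 SE, limma adjusted p = 0.00831). Irf8, the interferon regulatory factor shared by cDC1 and pDC and also made in macrophages and B cells, fell from 12.1 ± 0.579 to 5.09 ± 0.118 FPKM (SD, n = 3; log2 change -1.10, limma adjusted p = 1.19e-05). Batf, the T cell relative of Batf3, had a log2 change of -0.22 that missed the threshold (limma adjusted p = 0.0688) and passed it as lower with quantile normalization (-0.25, limma adjusted p = 0.0481), median ratio scaling (-0.26, limma adjusted p = 0.038) and CD8+ T cell scaling (-0.74, limma adjusted p = 0.000152). Of the 7 other cDC1 genes tested, Irf8 included, 4 fell and 0 rose, with a median of -0.69. Among those that fell were Cadm1, an adhesion molecule (3.77 ± 0.323 to 0.44 ± 0.0781 FPKM), and Wdfy4, needed for cross-presentation (8.16 ± 0.935 to 2.93 ± 0.102 FPKM). Of the 10 other cDC1 genes under the filter, 5 had lower groups that did not overlap and 0 higher.

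Cd209a (ENSMUSG00000031494), a lectin of cDC2 and of some monocytes, had the widest spread of the set in MWA+PBS. Its FPKM was 0.62, 1.01 and 0.18 under MWA+PBS and 0.75, 0.53 and 0.71 under MWA+2DG. All MWA+2DG samples lay inside the MWA+PBS range, and the coefficient of variation was 68.8% under MWA+PBS and 17.7% under MWA+2DG. The difference was 0.08 (exact permutation p = 0.8), and without MWA+PBS replicate 3 it was -0.12. Its relatives Cd209b to Cd209e were at most 0.21 FPKM in any sample.

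Of 13 cDC2 genes tested besides Cd209a, 7 fell and 2 rose, with a median of -0.37. The fall was led by Sirpa (42.4 ± 3.43 to 8.36 ± 0.217 FPKM) and Clec4a1 (14.4 ± 0.913 to 3.13 ± 0.348 FPKM), which macrophages also express, and the genes that rose were Itgam and Irf4. Irf4, also a gene of activated T cells, rose by 0.40 and turned to -0.13 when scaled to CD8+ T cell genes.

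Of the pDC genes, Tcf4 and Siglech had groups apart with the lower values in MWA+2DG, and the direction of Bst2 depended on the scaling. Tcf4 (ENSMUSG00000053477) encodes the E protein that sets pDC fate. It had 0.88, 0.92 and 0.89 FPKM under MWA+PBS and 0.35, 0.38 and 0.38 FPKM under MWA+2DG, the tightest replicates of the set. The means stood 2.42-fold apart (difference -0.47, exact permutation p = 0.1). With a minimum mean of 0.25 FPKM, where 16.7% of 16225 genes were called lower, limma gave an adjusted p of 0.00343, and without a filter 0.00615. The call of the other E proteins depends on the scaling. Tcf3 had a log2 change of -0.08 (limma adjusted p = 0.527) and Tcf12 one of 0.16 (limma adjusted p = 0.0537). Scaled to CD8+ T cell genes both passed as lower, at -0.60 and -0.37 (limma adjusted p = 0.000781 and 0.00167). So did 9686 of all 12444 genes, with a median of -0.48. Of the inhibitors of E proteins, Id3 rose by 0.57 (limma adjusted p = 0.00443; 0.04 when scaled to CD8+ T cell genes) and Id2 had a log2 change of 0.28 (limma adjusted p = 0.0856), which turned to -0.25 under that scaling (limma adjusted p = 0.0312).

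Siglech (ENSMUSG00000051504), a sialic acid binding lectin of mouse pDC, had 0.80, 0.80 and 1.04 FPKM under MWA+PBS and 0.58, 0.46 and 0.53 FPKM under MWA+2DG. The groups were apart, with means 1.68-fold different (difference -0.30, exact permutation p = 0.1). Its limma adjusted p was 0.0389 with a minimum mean of 0.25 FPKM and 0.071 without a filter, so the call rests on the filter. Tyrobp, the DAP12 adaptor through which Siglec-H signals and which myeloid and NK cells share, fell from 43.5 ± 2.91 to 16.9 ± 2.93 FPKM (SD, n = 3; log2 change -1.32, limma adjusted p = 0.000126). The other adaptor of this kind, Hcst, rose from 14.8 ± 0.625 to 25.4 ± 2.35 FPKM. The other lectins of the family moved both ways. Siglec1 and Siglece, genes of macrophages and other myeloid cells, fell by 1.19 and by 1.49, while the B cell genes Siglecg and Cd22 rose by 1.28 and by 1.71.

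Bst2 (ENSMUSG00000046718), which encodes tetherin, the pDC antigen PDCA-1 and an interferon-induced protein of many cells, was by far the highest member. It had 22.71, 21.84 and 18.10 FPKM under MWA+PBS and 26.24, 22.77 and 25.77 FPKM under MWA+2DG. The groups were apart by a small margin, between replicate 1 and replicate 5. The means were 20.9 ± 2.45 and 24.9 ± 1.88 (SD, n = 3 each), with a log2 change of 0.25 ± 0.10 (SE; 95% interval 0.03 to 0.47; limma adjusted p = 0.0748). Scaled to CD8+ T cell genes it was -0.28 (limma adjusted p = 0.0083), so its direction depends on the scaling. The profile nearest to it was that of Zscan18, a zinc finger gene, with a root mean square difference of 0.0146 after centring.

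Bst2 belongs to 2 of the gene lists, and their counts differed. Of 26 other interferon-induced genes tested, 22 rose and 0 fell, with a median of 0.67. Scaled to CD8+ T cell genes, 11 were called higher and 8 lower, with a median of 0.14. Of all 12444 genes tested, that scaling called 318 higher and 9686 lower, with a median of -0.48. The rise was led by Ifit3 (6.23 ± 0.495 to 15.8 ± 0.215 FPKM) and Ifit3b. Of 17 other pDC genes tested, 4 rose and 8 fell, with a median of -0.20. Among the pDC genes that fell were Mpeg1, a pore-forming protein that macrophages also express (75.9 ± 2.29 to 19.2 ± 0.32 FPKM), and Cox6a2, a mitochondrial subunit (4.34 ± 0.663 to 0.58 ± 0.226 FPKM). Those that rose were led by Spib, a factor of pDC and B cells (0.663 ± 0.0808 to 3.91 ± 0.418 FPKM), and Irf7, the interferon regulator (12.8 ± 1.11 to 24 ± 2.9 FPKM).

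**Figure D3:**
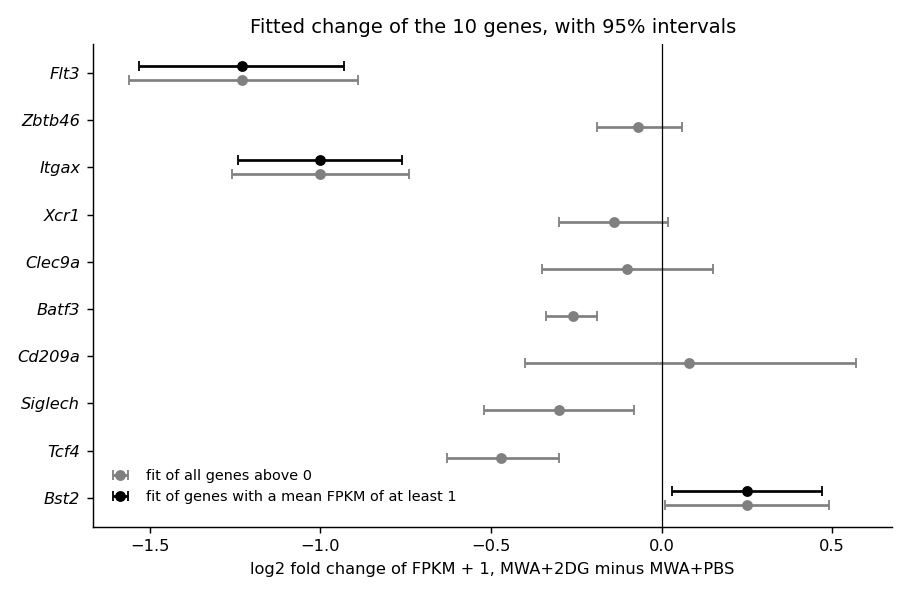
Log2 fold change of each of the 10 genes with its 95% interval, from the fit of genes with a mean of at least 1 FPKM (black, 3 genes) and from that of all genes above 0 (grey). Flt3, Itgax, Tcf4, Siglech and Batf3 have intervals below 0, that of Bst2 lies above 0, and Zbtb46, Xcr1, Clec9a and Cd209a have intervals that hold 0.

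The order of the levels changed below the highest 2 genes. In MWA+PBS the order was Bst2, Itgax, Flt3, Tcf4, Siglech, Cd209a, Clec9a, Xcr1, Batf3 and Zbtb46. Neighbours from Tcf4 down to Xcr1 overlapped in range, as did Batf3 and Zbtb46. In MWA+2DG it was Bst2, Itgax, Cd209a, Flt3, Siglech, Clec9a, Xcr1, Tcf4, Zbtb46 and Batf3, and neighbours from Cd209a down to Tcf4 overlapped. Flt3 thus dropped from above the low genes into their range, and Batf3 to the end.

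Genes beyond the subset markers were mixed. Of 9 genes shared by conventional dendritic cells, 4 rose and 3 fell, with a median of 0.14, and under CD8+ T cell scaling 1 was called higher and 6 lower, with a median of -0.39. Kit and the activation marker Cd83 fell, and Jaml and Ap1s3 rose, the last turning to -0.06 under that scaling. Of 5 tested genes of mature dendritic cells, 2 rose (Ccl5, a T cell chemokine, and Cd274, which encodes PD-L1 and turned to -0.07 under that scaling) and 2 fell (Cd83 and Cd86, a costimulator), with a median of 0.14, against 0 higher and 3 lower and a median of -0.39 under that scaling. Of 25 ligands, partners and relatives 11 rose and 10 fell, with a median of 0.16, against 6 higher and 15 lower and a median of -0.37 under that scaling. Of 20 genes of dendritic cell development, with a median of -0.15, 9 fell, led by Csf1r and the cytokine receptor chain Csf2rb, and 3 rose, led by Id3 and Flt3l. Under that scaling 17 of these were called lower and 0 higher, with a median of -0.68. Of all 12444 genes tested, 9686 were called lower under it and 318 higher, with a median of -0.48. For the other subset lists the scaled counts were 0 higher and 7 lower (cDC1), 1 higher and 11 lower (cDC2) and 3 higher and 11 lower (pDC). Of 9 class II presentation genes 6 rose and 0 fell, with a median of 0.61, and scaled to CD8+ T cell genes 2 were called higher and 3 lower, with a median of 0.08. H2-DMb2 and H2-Oa, both prominent in B cells, had the largest rises and stayed higher under that scaling.

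The isolates held the RNA of the labelled cells. Cd8a had 231.5 ± 6.96 FPKM under MWA+PBS and 366.4 ± 9.47 FPKM under MWA+2DG (SD, n = 3), Cd8b1 and Cd3e rose by 0.55 and by 0.38 (Cd3e at -0.15 when scaled to the whole list), and all 16 CD8+ T cell identity genes tested rose. Markers of other cells moved as well. The summed FPKM of 20 monocyte and macrophage genes was 1160.5 to 1238.0 under MWA+PBS and 424.2 to 472.3 under MWA+2DG, where 17 of 19 tested fell and 2 rose (median -2.50), and with CD8+ T cell scaling 17 were called lower and 0 higher. The 14 neutrophil genes summed to 68.6 to 93.5 and to 1622.1 to 1803.6 FPKM, with 12 of 13 tested higher (median 4.10), and the 15 B cell genes to 27.6 to 28.9 and 83.6 to 89.9 FPKM, with 12 of 13 higher (median 1.64). Of 5 NK cell genes tested 1 rose and 2 fell, with a median of -0.15, and of 5 plasma cell genes 1 rose and 2 fell, with a median of 0.06. Under CD8+ T cell scaling the NK cell genes had 1 called higher and 4 lower, and the plasma cell genes 0 higher and 4 lower, with a median of -0.46. That is near the share over all genes, of which 9686 of 12444 were called lower under this scaling and 318 higher. The part of these cells in the changes of the dendritic cell genes was not tested.

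**Figure D4:**
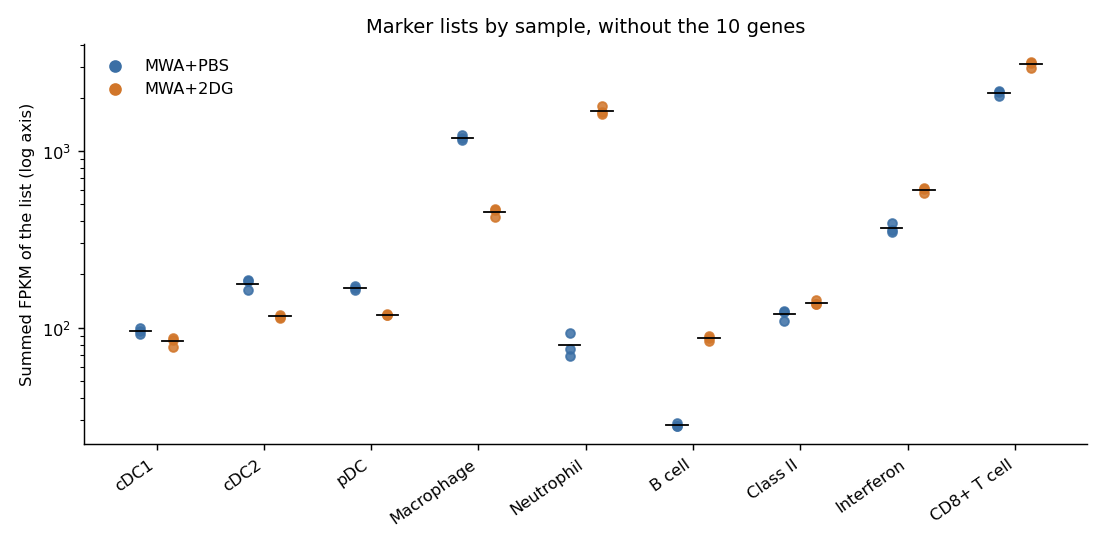
Summed FPKM of marker lists in each sample (log axis), with the 10 genes left out and group means as bars. The cDC1, cDC2, pDC and macrophage sums are lower in all MWA+2DG samples, and the neutrophil, B cell, class II, interferon and CD8+ T cell sums are higher. Mpeg1 alone fell by more FPKM (mean 75.9 to 19.2) than the whole pDC sum (mean 166.9 to 118.4), so the lower pDC sum rests on that gene.

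Ratios within a sample do not depend on how libraries were scaled, and were added after the data had been seen. Per 100 FPKM of Cd8a, 9 of the 10 genes were lower in every MWA+2DG sample, Bst2 among them (9.01 ± 0.945 and 6.80 ± 0.442; SD, n = 3), and Cd209a overlapped. Of all 28458 genes above 0, 46.4% were lower in this way. Per 100 FPKM of Csf1r, 8 of the 10 were higher in every MWA+2DG sample, as were 64.9% of all genes above 0, with Csf1r itself 6.43-fold lower there. Itgax had 6.63 ± 0.516 and 16.6 ± 2.89 FPKM per 100 of Csf1r, and Tcf4 had 1.33 ± 0.151 and 3.51 ± 0.146. The genes that overlapped were Flt3 (3.77, 5.65 and 3.23 against 6.2, 6 and 5.32, of which the last lies inside the MWA+PBS range) and Batf3. No test was made on these ratios.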

How the data were processed

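RNA was sequenced from splenic CD8+ T cells isolated with a kit from mice on day 35, in 3 MWA+PBS and 3 MWA+2DG samples, grouped by their labels. The authors deposited FPKM per gene with at most 2 decimals. By the study's methods these came from fastp, HISAT2, StringTie and ballgown. The submitters' processing notes name cutadapt 1.9, HISAT2 2.0.4, UMI-tools, StringTie 1.3.4d and mm9. For the annotation, it was not given in the sources used here. FPKM is relative to the library total, so transcripts that take a larger share lower the others. Totals were 291803 to 313257 FPKM. With the best of many steps tried for each sample, 36.9% to 40.2% of low values lay within 0.15 of a whole multiple. The share by chance is 30% for a fixed step and was not found for a chosen one. No clear step of a read was thus seen, so the depth of each sample is unknown and counting intervals are left out.

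Symbols were found for 28689 of 28773 gene IDs in GENCODE M21. log2(FPKM + 1) was fitted with limma 3.58.1 in R 4.3.3 (lmFit, eBayes with a trend, two-sided, no covariates) for the 12444 genes with a mean of at least 1 FPKM, with Benjamini-Hochberg adjustment over all of them. Fold changes on this scale understate the change of low genes. Members under the filter got an exact two-sided permutation test. On simulated data with 12444 genes, the fit recovered 80.8% of 99 genes changed by 0.75 and 97% of 101 changed by 1.5 (log2). Copies were searched with blastn 2.17.0. Alternatives were the pseudocount, the filter, the scaling, the prior, sample weights, the call rule and leaving out each sample.

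The members and lists were chosen with earlier results of these data known. Named were the 10 genes, any gene of the list of ligands, partners and relatives, the nearest profile of each member in the fit, Cd8a, Cd8b1 and Cd3e, and from each list up to 2 genes called higher and 2 lower with the largest change whose groups did not overlap. Lists were counted without the 10 genes, and no set test was run.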

Additional observations from a re-analysis of the deposited data

How the results depend on the processing

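Of the 10 genes, 2 were called (Flt3 and Itgax), and this stayed at 2 without each sample in turn. The count was 4 without a filter (Batf3, Flt3, Itgax and Tcf4), 4 with a mean of at least 0.25 FPKM (Flt3, Itgax, Siglech and Tcf4) and 0 with a mean of at least 5 FPKM, which leaves Flt3 and Itgax untested. Scaled to CD8+ T cell genes it was 3 (Bst2, Flt3 and Itgax, all lower). Of the 7 genes under the filter, 2 were thus called with a minimum of 0.25 FPKM and 2 without a filter, against 0 by the permutation test, which cannot pass the threshold. Over all genes 4907 were called, 2951 with a mean of at least 5 FPKM (fewer genes tested), 10004 with scaling to CD8+ T cell genes and 3706 to 5195 without each sample. That scaling removes the 0.53 rise of the CD8+ T cell list, moves the median of all genes to -0.48 and turns 2773 higher and 2134 lower calls into 318 and 9686. Under it Bst2 went to -0.28 (limma adjusted p = 0.0083) and Cd209a to -0.44, and since 0.53 is taken from log2(FPKM + 1), it weighs most on genes near 0. Without MWA+PBS replicate 3, Cd209a went from 0.08 to -0.12, and its range without each sample was -0.12 to 0.26. That range was 0.15 to 0.31 for Bst2, -0.19 to -0.04 for Clec9a and -0.1 to -0.02 for Zbtb46. With a pseudocount of 0.1 the 2 genes called were again Flt3 and Itgax, and the differences of the low genes grew by over 1.5 times: Flt3 to -2.01, Batf3 to -1.41, Tcf4 to -1.08, Siglech to -0.65, Xcr1 to -0.38, Zbtb46 to -0.29, Clec9a to -0.26 and Cd209a to 0.32. No other change of direction was found among the 10 genes under the alternatives run. No paired analysis was possible because the samples are numbered 1 to 3 and 4 to 6, so the groups share no number. The unknown depth limits what can be said of the 7 genes under 1 FPKM.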
